A study of Mus musculus with 22 samples.

Results

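The genes described here are the 63 autosomal protein-coding mouse genes with a symbol from Zfp900 to Zfp999, out of 20720 autosomal protein-coding genes of the GENCODE M21 basic set. They were chosen by symbol alone, but with the H3K4me3 lists of these cells already known, so all counts of marked, kept, lost and gained promoters below are descriptions without a test. Chromatin immunoprecipitation followed by sequencing (ChIP-seq) had been done on embryonic stem cells of the mouse, kept in serum and LIF, a cytokine that holds them undifferentiated. The wild-type group is the E14 line, with lists of called peaks for MTF2, EZH2, H3K27me3 and H3K4me3. The second group is labelled Mtf2 GT/GT, cells in which a gene trap cassette disrupts the coding sequence of Mtf2, with lists for EZH2, H3K27me3 and H3K4me3. The labels give 2 libraries for each of these 7 groups and 1 peak list per group. Their text fields name E14 for gene-trap libraries as well, while the cell line field does not, so the parental line and the number of clones are not settled by the labels, and genotype and line cannot be told apart. MTF2 in gene-trap cells was not analysed here, so the trap itself has no check in these data.

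Most Zfp genes of this range encode KRAB zinc finger proteins. Their tandem C2H2 zinc fingers read DNA sequence, and the KRAB domain recruits the corepressor TRIM28 and with it the H3K9 methyltransferase SETDB1, which in embryonic stem cells silences endogenous retroviruses and other repeats. These genes spread by tandem duplication, so neighbours are often close copies of each other, and the mouse clusters on chromosomes 2 and 4 are known for recent expansion. H3K4me3 lies at the promoters of most active genes. MTF2 is a subunit of Polycomb repressive complex 2 that binds CpG-rich DNA, and EZH2 is the subunit that deposits H3K27me3.

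Promoter sequences are given first for the genes on which the description turns. They are the 300 bases from 250 before to 50 after the start in RefSeq, build GRCm38.p6, and capitals mark each CG dinucleotide. The table held a promoter for 53 of the 63 genes. The genes without an entry were Zfp930, Zfp934, Zfp960, Zfp969, Zfp978, Zfp986, Zfp989, Zfp990, Zfp991 and Zfp992. Zfp987 (chr4:146097062-146097361, plus strand) and Zfp988 (chr4:147305354-147305653, plus strand) are the 2 genes whose promoter H3K4me3 peak was absent from the gene-trap list. Zfp985 (chr4:147553027-147553326, plus strand) is the gene with a kept peak whose promoter is most like that of Zfp987 in their cluster, and its peak was more than 2-fold narrower in gene-trap cells. These 3 are shown to let their shared sequence be seen.
Zfp987: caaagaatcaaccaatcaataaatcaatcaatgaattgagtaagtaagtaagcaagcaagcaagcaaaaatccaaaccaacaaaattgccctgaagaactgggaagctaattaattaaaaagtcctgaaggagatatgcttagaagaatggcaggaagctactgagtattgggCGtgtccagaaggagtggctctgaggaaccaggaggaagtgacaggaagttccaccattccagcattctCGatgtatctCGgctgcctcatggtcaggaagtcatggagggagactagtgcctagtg
Zfp988: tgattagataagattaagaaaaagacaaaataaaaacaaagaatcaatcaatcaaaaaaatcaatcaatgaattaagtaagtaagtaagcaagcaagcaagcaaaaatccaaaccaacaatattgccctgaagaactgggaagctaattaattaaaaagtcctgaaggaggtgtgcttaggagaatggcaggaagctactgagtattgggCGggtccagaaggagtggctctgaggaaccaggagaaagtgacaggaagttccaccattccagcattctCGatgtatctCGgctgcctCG
Zfp985: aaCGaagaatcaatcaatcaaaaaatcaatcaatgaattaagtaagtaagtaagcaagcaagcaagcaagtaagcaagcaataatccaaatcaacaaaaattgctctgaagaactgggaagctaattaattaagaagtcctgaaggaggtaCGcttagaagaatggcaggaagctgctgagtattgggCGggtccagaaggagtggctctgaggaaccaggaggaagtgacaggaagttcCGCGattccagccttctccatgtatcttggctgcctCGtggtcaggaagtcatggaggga
Aligned without penalty for overhanging ends, Zfp987 and Zfp988 were identical at 253 of 264 columns (95.8%), and Zfp985 matched Zfp987 at 267 of 298 (89.6%). The promoters of Zfp987, Zfp988 and Zfp985 held 3, 4 and 6 CG dinucleotides.

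The next pair is shown because the sequences are nearly the same and the peak calls are not. Zfp966 (chr2:175931051-175931350, minus strand) had no H3K4me3 peak in either list, and Zfp970 (chr2:177464492-177464791, plus strand) had one in both.
Zfp966: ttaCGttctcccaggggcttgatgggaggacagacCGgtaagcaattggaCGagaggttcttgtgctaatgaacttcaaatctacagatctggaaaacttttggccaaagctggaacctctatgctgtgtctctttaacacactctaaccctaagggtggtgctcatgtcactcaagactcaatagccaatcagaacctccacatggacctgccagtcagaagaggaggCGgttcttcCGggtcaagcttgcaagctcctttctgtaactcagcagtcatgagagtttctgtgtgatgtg
Zfp970: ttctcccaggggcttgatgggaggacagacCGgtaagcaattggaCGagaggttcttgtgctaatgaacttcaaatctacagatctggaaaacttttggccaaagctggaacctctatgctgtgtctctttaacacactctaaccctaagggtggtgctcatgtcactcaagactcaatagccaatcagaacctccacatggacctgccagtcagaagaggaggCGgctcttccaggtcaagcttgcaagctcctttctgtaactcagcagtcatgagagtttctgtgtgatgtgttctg
They were identical at 293 of 295 aligned columns (99.3%). The window around the Zfp966 start holds no 75-base word that occurs only once in the genome, so a missing peak there cannot be told apart from reads that were not placed. The promoter of Zfp967 (chr2:176520754-176521053, plus strand) was identical to that of Zfp966 over all 300 columns and also had no peak in either list. Zfp951 (chr5:104860019-104860318, minus strand) was the only gene with a promoter peak in the gene-trap list only.
Zfp951: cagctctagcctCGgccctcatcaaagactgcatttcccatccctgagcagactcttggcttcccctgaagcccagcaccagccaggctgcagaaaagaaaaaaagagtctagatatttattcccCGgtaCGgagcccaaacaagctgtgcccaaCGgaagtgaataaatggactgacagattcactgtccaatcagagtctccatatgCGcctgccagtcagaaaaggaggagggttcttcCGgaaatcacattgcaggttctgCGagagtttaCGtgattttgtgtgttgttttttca
The last sequence is the central 300 bases of the MTF2 peak at Zfp964 (chr8:69654895-69655194, plus strand, GRCm38), the only gene of the range with an MTF2 peak at its promoter.
Zfp964: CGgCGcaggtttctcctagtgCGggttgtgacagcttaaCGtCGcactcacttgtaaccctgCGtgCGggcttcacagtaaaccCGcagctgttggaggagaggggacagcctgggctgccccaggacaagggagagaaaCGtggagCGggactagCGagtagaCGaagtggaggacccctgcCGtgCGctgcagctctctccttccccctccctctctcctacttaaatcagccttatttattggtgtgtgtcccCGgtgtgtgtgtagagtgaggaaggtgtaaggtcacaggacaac
This stretch holds 15 CG dinucleotides. Over the 60 RefSeq promoters of these genes the number of CG dinucleotides ran from 2 to 24 with a median of 7.5, against a median of 7 over all 32851 promoters of the table, of which 94.6% hold at least 1.

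The promoter of a gene was taken as the window within 1 kb of any of its protein-coding start sites, and it was marked when a peak touched that window by at least 1 bp. A marked gene kept H3K4me3 when a gene-trap peak touched the window too, lost it when none did, and gained it when only a gene-trap peak did. In wild-type cells 50 of the 63 genes were marked (79.4%, exact Clopper-Pearson 95% interval 67.3 to 88.5), against 67.0% of all autosomal protein-coding genes. In gene-trap cells 49 of 63 were marked. Both lists marked 48 genes, 96.0% of the wild-type set (86.3 to 99.5), where 98.8% of all marked genes kept theirs. Zfp987 and Zfp988 lost it, 2 of 50 (4.00%, 0.488 to 13.7), beside 1.18% of all marked genes. In the lowest class of CG density described below, where both lie, 17.1% of all marked genes lost it. Zfp951 gained it, 1 of 13 unmarked genes (7.69%, 0.195 to 36.0), beside 4.02% of all unmarked genes. Zfp951 is in the same lowest class of CG density, where 0.836% of all unmarked genes gained it. The remaining 12 genes were in neither list (95% interval of the share 10.2 to 30.9%), beside 31.7% of all genes. The intervals cover counting error over genes only, and neighbouring copies are not independent. Of the 295 other autosomal genes with the symbol Zfp and a number, 280 kept H3K4me3, 1 lost it, 2 gained it and 12 were in neither list, so in that group 95.3% were marked in wild-type cells.

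The wild-type peaks behind the 50 marked genes were 51 distinct regions, from 483 to 8696 bp wide with a median of 2058 bp. The gene-trap peaks were 49 regions from 1091 to 6051 bp with a median of 1819 bp. In each list a start site lay inside a peak for every marked gene. Zfp934 and Zfp935 share a peak, as do Zfp942 and Zfp943, so these pairs are not separate observations.

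**Figure D1:**
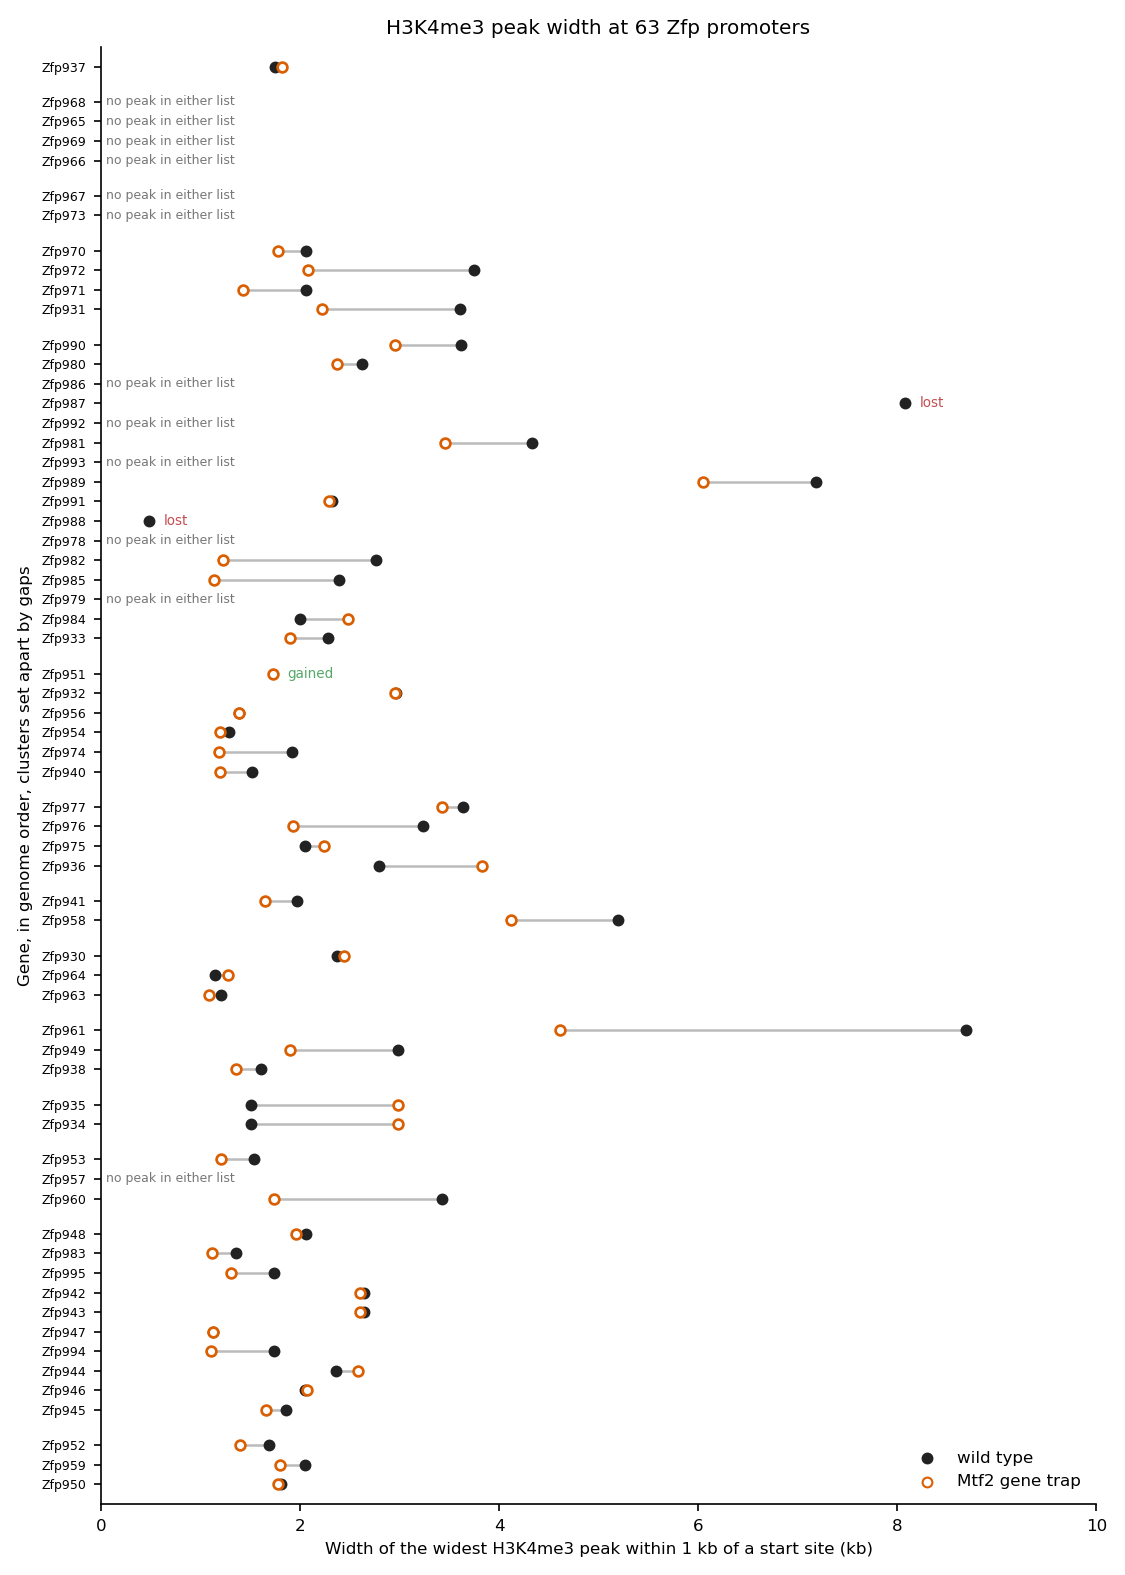
Width in kb of the widest H3K4me3 peak at each of the 63 promoters (x axis), with the genes in genome order and the clusters set apart by gaps (y axis). Filled points are the wild-type list and open points the gene-trap list, 1 value each. A line joins the 2 points of a kept gene, and its length shows the difference in kb and not the fold. The 10 genes at least 1.5-fold narrower in gene-trap cells therefore cannot be picked out by line length alone. Zfp987 and Zfp988 have only a filled point, Zfp951 only an open one, and 12 genes have none. The points of Zfp981 are peaks at different start sites.

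At Zfp987 the wild-type list held 1 peak of 8075 bp, chr4:146097300-146105374, which began 45 bp before the start site at 146097345 and ran 8029 bp into the gene, over 102 bp of exon and 7973 bp of intron. The gene-trap list held 1 peak of 3147 bp inside it, from 3652 to 6798 bp after the start site, all of it intron. H3K4me3 was thus called downstream of the Zfp987 start in both genotypes, and at the start in wild-type cells only. Zfp988 had 2 wild-type peaks in the first part of the gene. The peak at its upstream start site was 483 bp, the narrowest of all those at these promoters, and the other was 5463 bp, from 3115 to 8577 bp after the start. The gene-trap list held no peak at the start and 1 of 4104 bp from 4459 to 8562 bp after it. In wild-type cells the start and the intron of Zfp987 were thus under 1 continuous peak, while those of Zfp988 were under 2 separate ones. Counted by overlap with the wild-type promoter peak in place of the window, Zfp987 kept H3K4me3 and Zfp988 did not. Zfp985 and Zfp982 in the same cluster had the largest fold decreases in width among the kept genes, by the widest peak at each. At Zfp985 the peak at the start was 2394 bp in wild-type and 1133 bp in gene-trap cells, and a second wild-type peak of 4241 bp, from 3109 to 7349 bp after the start, overlapped no gene-trap peak. At Zfp982 the peak was 2768 bp in wild-type and 1227 bp in gene-trap cells, ending 2490 bp and 1164 bp after the start. Zfp984 kept the peak at its upstream start, 2006 bp in wild-type and 2486 bp in gene-trap cells. The wild-type peak of 1298 bp at its downstream start was absent from the gene-trap list.

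Zfp951, on chromosome 5 outside any cluster, had a gene-trap peak of 1726 bp, chr5:104858871-104860596, across its upstream start site at 104860070. The nearest wild-type H3K4me3 peak lay 33293 bp from a start site of the gene.

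The 12 genes in neither list were Zfp968, Zfp965, Zfp969, Zfp966, Zfp967 and Zfp973 on chromosome 2, Zfp986, Zfp992, Zfp993, Zfp978 and Zfp979 on chromosome 4, and Zfp957 on chromosome 14. Their promoter windows differ from those of the kept genes in how much of the sequence occurs elsewhere. The measure was the share of 75-base words, the length of the reads, that occur once in the GRCm38 primary assembly on either strand. For the 6 chromosome 2 genes this unique share was 0, and the median word occurred 7 times. For the chromosome 4 genes it was 15.6% at Zfp986, 9.08% at Zfp993, 7.27% at Zfp978, 6.63% at Zfp979 and 63.8% at Zfp992. Zfp957 had a window that was 100% unique. The call of Zfp986 depended on the start site. Its only protein-coding start in the basic set, of a product of 21 residues, lies near the far end of the gene, and at the 5′ end of the gene, 145868794, H3K4me3 peaks of 5201 bp in wild-type and 4372 bp in gene-trap cells lay within 1 kb. At no GENCODE transcript start of the other 11 was there a peak in either list. The RefSeq start of Zfp993 lies elsewhere, inside a wild-type peak at Zfp981. The median was 3.31% over the 12 genes and 88.7% over the 48 kept genes, whose lowest value was 19.2% at Zfp980. The lost genes had 39.8% (Zfp987) and 50.2% (Zfp988), and the gained gene Zfp951 had 85.9%. Of 24 genes with a unique share of at least 90%, 23 kept H3K4me3 and 1, Zfp957, was in neither list. Of all autosomal protein-coding genes in that class 70.6% kept it and 27.3% were in neither list. Between 50 and 90% there were 22 genes, of which 19 kept, 1 lost and 1 gained the mark and 1 was in neither list, beside 26.7% kept and 70.1% in neither list among all genes of that class. Under 50% there were 17, of which 6 kept and 1 lost it and 10 were in neither list. Among all 716 autosomal protein-coding genes under 50%, 91.2% were in neither list. Of the marked genes among all genes, 8.16% lost the mark under 50% and 5.41% between 50 and 90%. The median unique share of the 63 genes was 84.7%, and that of all genes was 100%. How reads that fit several places were treated is not given in the sources used here. An absent peak in a repeated window therefore cannot be told apart from reads that were not placed, and the part of this in the counts was not tested.

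**Figure D2:**
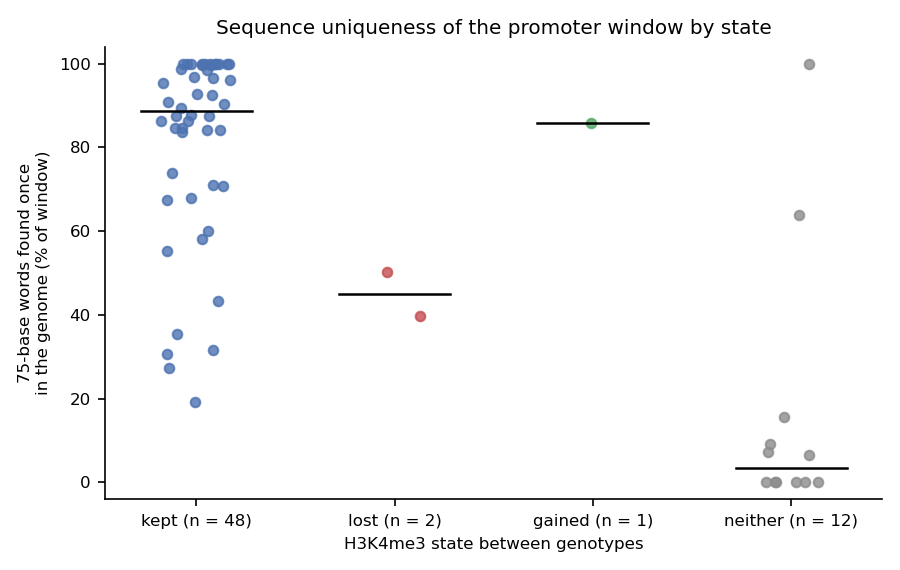
Share of the 75-base words of each promoter window found once in the genome, in percent (y axis), for the 63 genes by H3K4me3 state (x axis). Each point is a gene, spread sideways at random, and the line is the median. The kept genes have a median of 88.7%, while 10 of the 12 genes in neither list are under 50%.

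Genes were joined into a cluster when the gap to the next of the 63 was at most 500 kb. This gave 8 clusters with 45 genes and left 18 genes alone. Of the clustered genes 32 kept H3K4me3, 2 lost it and 11 were in neither list. Of the 18 others 16 kept it, 1 gained it and 1 was in neither list. Each loss was in the chromosome 4 cluster. In the proximal chromosome 2 cluster, chr2:175372436-175931100, none of the 4 genes was marked and neither list held a peak anywhere in its 558.665 kb, of which 100 kb is unknown sequence in the reference. The middle chromosome 2 cluster, chr2:176521056-176719085, has Zfp967 and Zfp973, both unmarked. The distal one, chr2:177464733-178078476, has Zfp970, Zfp972, Zfp971 and Zfp931, and all 4 kept the mark with a narrower peak. Their widths were 2058 and 1776 bp at Zfp970, 3745 and 2081 bp at Zfp972, 2066 and 1431 bp at Zfp971 and 3605 and 2227 bp at Zfp931, wild type first. Summed over that cluster, called H3K4me3 covered 25.85 kb in 11 wild-type peaks and 16.411 kb in 9 gene-trap peaks, or 63.5% of the wild-type length. On all autosomes the gene-trap list covered 81.5% of the wild-type length.

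Promoters were also nearly identical between the chromosome 2 clusters. Those within the proximal cluster were 99.6 to 100% identical, and that of Zfp965 matched that of Zfp973 in the middle cluster at all of 260 columns. Zfp971, which kept its peak, matched Zfp966 at 279 of 286 columns (97.6%). Zfp931, which also kept its peak, matched Zfp966 at 242 of 256 (94.5%). Zfp972 stood farther away, at 222 of 283 (78.4%). The unique shares of the 4 kept genes were 35.5% (Zfp970), 43.3% (Zfp972), 58.2% (Zfp971) and 30.6% (Zfp931), all above the 0 of the 6 unmarked genes.

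The chromosome 4 cluster, chr4:145510759-147848366, is the largest, with 16 genes in 2337.61 kb, of which 431.871 kb is unknown sequence in the reference. Of its genes 9 kept H3K4me3, 2 lost it and 5 were in neither list. The widest kept peak was at Zfp989, 7187 bp in wild-type and 6051 bp in gene-trap cells. Zfp981 had peaks at both of its start sites, and they differed in opposite directions. The upstream one was 1527 bp in wild-type and 3454 bp in gene-trap cells, and the downstream one 4328 and 1720 bp. It was the only kept gene whose widest peaks in the 2 lists, 4328 and 3454 bp, were not at the same place. Zfp990 had 3619 and 2954 bp, Zfp980 2624 and 2378 bp, Zfp991 2320 and 2293 bp, and Zfp933 2286 and 1898 bp, wild type first. With Zfp982 and Zfp985, 7 of the 9 kept genes had a narrower widest peak in gene-trap cells, Zfp984 had a wider one, and Zfp981 had 1 of each. Each list held 47 H3K4me3 peaks in the cluster, covering 119.268 kb in wild-type and 100.148 kb in gene-trap cells (84.0%). Of the wild-type peaks 40 overlapped a gene-trap peak and 7 did not, and 7 gene-trap peaks overlapped no wild-type peak. Promoters of the cluster that could be aligned over at least 200 columns were 70.4 to 95.8% identical, with a median of 84.8%.

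**Figure D3:**
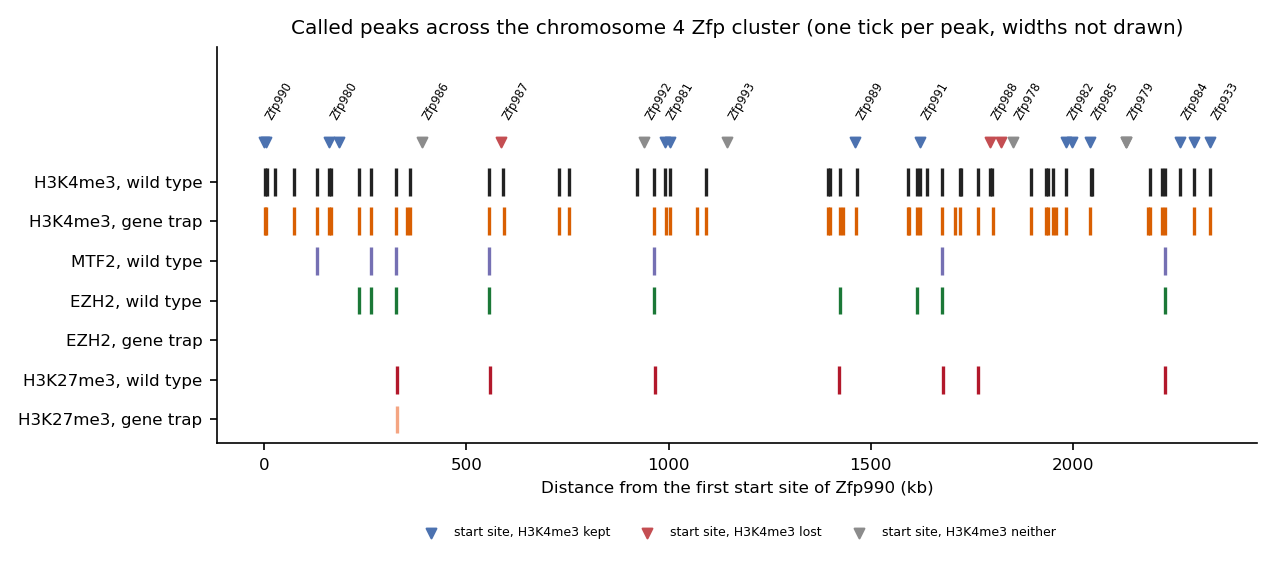
Peaks called across the chromosome 4 cluster, 1 tick per peak at its centre, by distance in kb from the first start site of Zfp990 (x axis) and by list (rows). Triangles are protein-coding start sites of the 16 genes, coloured by the state of the gene. The H3K4me3 rows hold 47 peaks each over the cluster, the wild-type MTF2, EZH2 and H3K27me3 rows hold 7, 9 and 7, and the gene-trap EZH2 row is empty.

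In the other clusters every gene kept H3K4me3. The chromosome 7 cluster, chr7:42579783-43192109, has Zfp977 (3639 and 3423 bp, the widest in wild-type cells), Zfp976 (3239 and 1933 bp), Zfp975 (2048 and 2241 bp) and Zfp936 (2797 and 3830 bp, the widest in gene-trap cells), wild type first. There 2 were narrower and 2 wider. The chromosome 8 cluster, chr8:69209038-69749970, has Zfp930 (2373 and 2446 bp), Zfp964 (1149 and 1274 bp) and Zfp963 (1208 and 1091 bp). In the chromosome 13 cluster, chr13:62453715-62571199, the peak shared by Zfp934 and Zfp935 was 1512 bp in wild-type and 2987 bp in gene-trap cells. That gene-trap peak overlapped 2 wild-type peaks, the second of 778 bp in an intron of both genes. The chromosome 17 cluster, chr17:21567008-22867134, has 10 genes, from 1128 to 2647 bp wide in wild-type and from 1112 to 2601 bp in gene-trap cells. Its widest peak was the shared one of Zfp942 and Zfp943, and only Zfp994 there was past 1.5-fold, at 1737 and 1112 bp. Taking all 8 clusters, 97 of 107 wild-type H3K4me3 peaks (90.7%) overlapped a gene-trap peak, beside 81.2% of the 26623 wild-type peaks on all autosomes. The 38 other protein-coding genes inside the clusters had 17 kept and 21 in neither list (55.3%, beside 31.7% of all genes). None lost the mark, beside 1.18% of all marked genes, and none gained it, beside 4.02% of all unmarked genes. The median unique share of these 38 was 64.5%, beside 100% over all genes, and the part of unplaced reads in their counts was not tested.

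Width was compared for the 48 kept genes through the widest peak at each promoter, which for Zfp981 compares 2 different places. The gene-trap peak was narrower at 36, wider at 11 and of equal width, 1388 bp, at Zfp956. The median log2 ratio of gene-trap over wild-type width was -0.20, beside -0.13 for all 13713 kept autosomal genes and -0.14 for the 280 other Zfp genes. At least 1.5-fold narrower were 10 genes (20.8%), beside 12.7% of all kept genes. With Zfp981 compared at its downstream start they were 11. At least 1.5-fold wider were 2, Zfp934 and Zfp935 with their shared peak (4.17%), beside 3.21%. Past 2-fold narrower were Zfp982 (log2 ratio -1.17) and Zfp985 (-1.08), 4.17% beside 4.74% of all kept genes, and none was past 2-fold wider, beside 1.25%. Zfp981 at its downstream start, with 4328 and 1720 bp, was also past 2-fold narrower but is not in that share. Besides these and Zfp972, Zfp931, Zfp976 and Zfp994, the narrower genes were Zfp961 (8696 and 4612 bp), Zfp960 (3427 and 1736 bp), Zfp949 (2989 and 1901 bp) and Zfp974 (1923 and 1192 bp), wild type first. Zfp961 had the widest wild-type peak of the range, and only Zfp989 had a wider one in gene-trap cells. When only the bases inside the promoter windows were counted, none of the 48 was past 1.5-fold either way and the median log2 ratio was -0.02, beside 0.000 for all genes. That measure cannot exceed the length of the window. Of the bases by which the 10 peaks were narrower, the share inside the window was 79.5% at Zfp994 (497 of 625 bp) and 29.8% at Zfp974 (218 of 731 bp). It was between 4.59 and 15% at 7 others. At Zfp949 the decrease lay outside the window, and coverage inside it was 1737 bp in wild-type and 1882 bp in gene-trap cells. Depth and peak threshold per list are unknown, and their part in the widths was not tested.

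**Figure D4:**
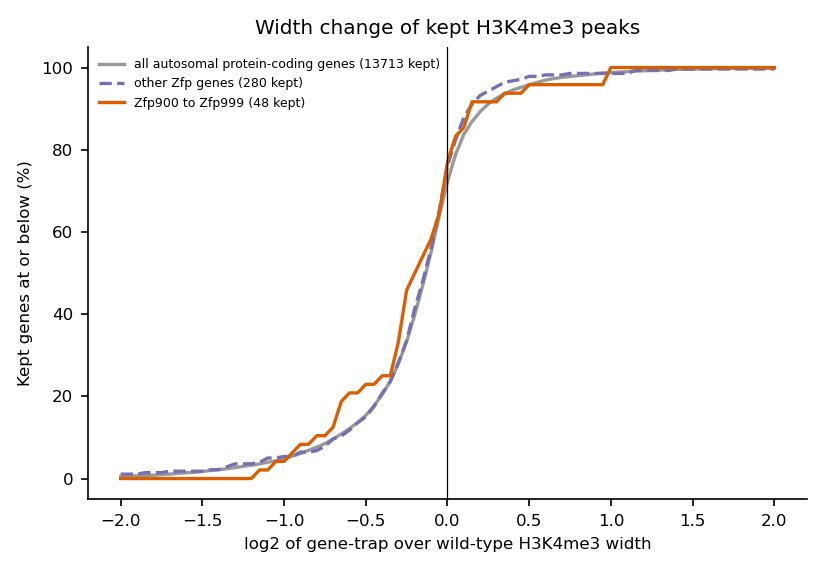
Cumulative share in percent (y axis) of kept genes with a log2 ratio of gene-trap over wild-type H3K4me3 width at or below the value on the x axis. Lines are the 48 Zfp900 to Zfp999 genes, the 280 other Zfp genes and all 13713 autosomal protein-coding genes, which include the others. The medians are -0.20, -0.14 and -0.13, and the highest ratio of the 48 is 0.98, at the shared peak of Zfp934 and Zfp935.

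Of the 18 genes outside clusters, the 16 kept ones ran from 1284 to 8696 bp in wild-type and from 1192 to 4612 bp in gene-trap cells. Zfp932, a repressor of endogenous retroviruses in mouse embryonic stem cells, had 2966 and 2957 bp. Zfp958 had 5193 and 4123 bp, the widest of them after Zfp961 in wild-type cells. Zfp937 was the only one with a wider gene-trap peak, 1751 and 1819 bp.

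Polycomb peaks were nearly absent from these promoters. Of the 63 genes 1 had an MTF2 peak in wild-type cells, beside 16.4% of all genes. The same gene, Zfp964, was the only one with a wild-type EZH2 peak, beside 17.1%, and with a wild-type H3K27me3 peak, beside 20.0%. None had EZH2 or H3K27me3 in gene-trap cells, beside 0.772% and 2.82% of all genes. Among the 295 other Zfp genes 25 had MTF2, 23 EZH2 and 32 H3K27me3 in wild-type cells. The shares over all genes vary with CG density, in the classes given below. In the lowest class, with 26 of the 63, 0.153% of all genes had MTF2 and 1.26% H3K27me3. In the next, with 33 of the 63, 11.8% had MTF2 and 19.4% H3K27me3. By unique share, 2.23% of all genes under 50% had MTF2, 2.86% between 50 and 90%, and 17.7% at 90% or more. The part of CG density and of unplaced reads in the low counts was not tested. At Zfp964 the MTF2 peak, chr8:69654839-69655251, was 413 bp and began 347 bp after the upstream start site, in an intron. The EZH2 peak was 483 bp, from 290 to 772 bp after the start. The H3K27me3 peak was 2515 bp, from 84 to 2598 bp after it. The H3K4me3 peak crossed the start in both lists, from 289 bp before to 859 bp after it in wild-type cells and from 416 bp before to 857 bp after it in gene-trap cells. The promoter thus carried H3K4me3 and H3K27me3 peaks together in wild-type cells and an H3K4me3 peak alone in gene-trap cells. The MTF2 peak had 24 CG dinucleotides, or 5.81 per 100 bp, where the median of all 6195 autosomal MTF2 peaks was 6.36. It was narrower than the median MTF2 peak of 863 bp.

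**Figure D5:**
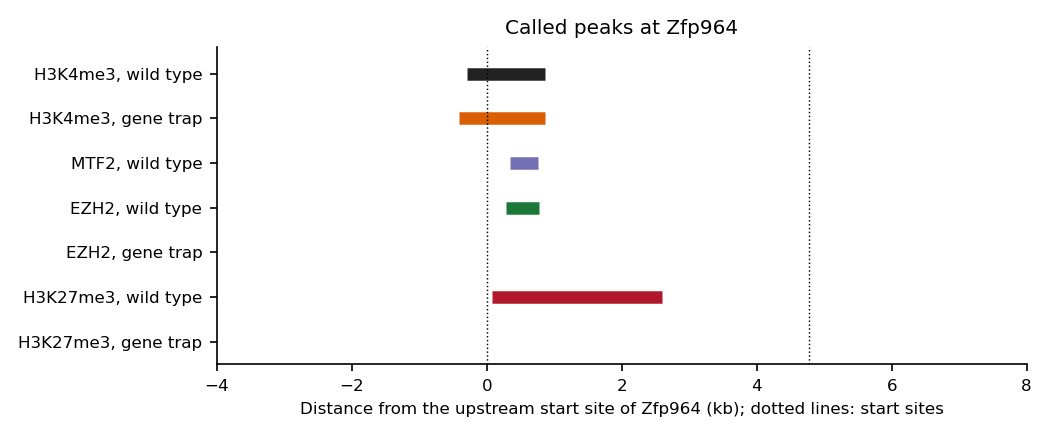
Peaks called at Zfp964, each drawn to length, by distance in kb from the upstream start site (x axis) and by list (rows), with start sites as dotted lines. MTF2 at 413 bp and EZH2 at 483 bp lie within the first 1 kb of the gene, H3K27me3 extends to 2598 bp, and the gene-trap rows for EZH2 and H3K27me3 are empty.

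Polycomb peaks did occur inside the clusters, away from these promoters. The chromosome 4 cluster held 7 MTF2, 9 EZH2 and 7 H3K27me3 peaks in wild-type cells, no EZH2 peak and 1 H3K27me3 peak in gene-trap cells. None was within 1 kb of a start site of the 16 genes. By annotation they lay at processed pseudogenes, which are copies of messenger RNA inserted into the genome. Of 45 processed pseudogenes in the cluster, 7 had MTF2, 9 EZH2 and 7 H3K27me3 within 1 kb of their 5′ end in wild-type cells, while of 22 protein-coding genes none had any. Of 8 unprocessed pseudogenes 1 had MTF2 and EZH2. The shares over all processed pseudogenes of the genome were not computed. The remaining gene-trap H3K27me3 peak, 2472 bp, was at Gm13238, where the wild-type lists had 897 bp of MTF2, 888 bp of EZH2 and 4139 bp of H3K27me3. At Gm13241, near Zfp992 and Zfp981, MTF2 covered 1083 bp, EZH2 1167 bp and H3K27me3 4164 bp, and no Polycomb peak was in the gene-trap lists. The MTF2 peaks of the cluster held from 7.34 to 15.1 CG dinucleotides per 100 bp. The promoter windows of its 16 genes had a median of 0.75. The part of CG density in the contrast between gene types was not tested. In the chromosome 8 cluster a second site with all 3 wild-type peaks was the unprocessed pseudogene Gm3365, 69289 bp from Zfp964. The chromosome 17 cluster held 1 EZH2 peak of 653 bp inside an H3K27me3 peak of 3017 bp, without MTF2. The chromosome 2, 7 and 13 clusters held none of these peaks.

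Counted over the whole promoter windows, these genes were poor in CpG. The median over the 63 genes was 1.45 CG dinucleotides per 100 bp, beside 3.02 over all genes. In their shorter RefSeq promoters they were not, with a median of 7.5 CG dinucleotides per promoter, beside 7 over all 32851 promoters. These comparisons use different sets of promoters. The classes of CG density refer to the windows and not to the RefSeq promoters. The quartiles of all genes, 1.25, 3.02 and 4.70, put 26 of the 63 in the lowest class, 33 in the next, 4 in the third and none in the highest. In the lowest class 20 of the 26 were marked with H3K4me3 in wild-type cells (76.9%, 56.4 to 91.0), where 211 of all 5234 genes of that class were (4.03%). Those 211 include the 20. Both lost genes, with 0.55 (Zfp987) and 0.50 (Zfp988) per 100 bp, were in the lowest class. In the class above, 26 of 33 were marked (78.8%), beside 66.0% of all 5129 genes. The lowest density with a kept peak was 0.45 at Zfp980, and the highest was 3.64 at Zfp943.

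The proteins were read from the longest coding sequence of each gene. A pattern for the KRAB A box was found in 54 of the 63, in 42 of the 48 kept genes and in 9 of the 12 in neither list. The number of C2H2 fingers ran from 0 to 21 with a median of 11. Zfp974 had the most, 21, and both lost genes had 14. The median was 11 in the kept genes and 4.5 in the 12 in neither list. Among the 12, Zfp968, Zfp986, Zfp993 and Zfp957 had no match in annotated products of 138, 21, 129 and 567 residues. The kept genes Zfp972 and Zfp935 had none either, in 139 and 150 residues.

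A list of 24 genes was drawn up for the KRAB zinc finger silencing pathway. It holds corepressors and chromatin enzymes, well-studied zinc finger genes such as Zfp57 and Zfp809, and also the stem cell marker Zfp42. All 24 kept H3K4me3, beside 98.8% of all marked genes. At least 1.5-fold narrower were 7, Zfp42 among them, beside 12.7% of all kept genes, and none was as much wider, beside 3.21%. The median log2 ratio was -0.21. Trim28, the corepressor bound by KRAB, had 8622 bp in wild-type and 7650 bp in gene-trap cells. Setdb1, which methylates H3K9, had 2261 and 2274 bp. Dnmt1, the maintenance DNA methyltransferase, had 10653 and 2839 bp. Zfp809, which silences proviruses, had 3840 and 2501 bp. Wild-type H3K27me3 was at 3 of the 24 (12.5%), beside 20.0% of all genes. These were Dnmt3a and Dnmt3b, the de novo DNA methyltransferases, and Hdac2, a histone deacetylase. Of these 3, only Hdac2 had no MTF2 or EZH2 peak, and only Hdac2 had gene-trap H3K27me3, of 1305 bp. As a check of the cell type, 9 of 9 stem cell marker genes, Pou5f1, Nanog and Sox2 among them, had H3K4me3 in both lists, and 1 of them, Esrrb, had H3K27me3 too. Presence of the mark is a weak check, as 67.0% of all genes had it in wild-type and 67.5% in gene-trap cells. The peaks of 2 markers (22.2%) were more than 1.5-fold narrower in gene-trap cells, beside 12.7% of all kept genes. These were Zfp42, which is also in the list of 24, with 21983 and 4785 bp, and Esrrb with 36617 and 21479 bp.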

How the data were processed

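ChIP-seq peaks of mouse embryonic stem cells were analysed from 7 lists, each made by the authors for a group of 2 libraries; the other 8 of the 22 libraries were not analysed here. Per the labels, 75-base reads came from a NextSeq. CASAVA, MACS2 2.7 and BWA 0.7.10-r789 are the tools, and mm10 (GRCm38) the build, per the submitters' processing notes. The role of each tool, the threshold, the control and the pooling of libraries are not given in the sources used here. The deposited lists hold peak positions (chromosome, start, end) in bp, with no height, score or read count, so depth and the spread between replicates are unknown and no test was made. Starts were converted to positions counted from 1, and 0 of 76023 peaks passed a GRCm38 chromosome end.

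Genes, start sites and coding sequences came from GENCODE M21 basic, and promoters from RefSeq (GRCm38.p6). Word uniqueness was counted over the primary assembly with Python 3.11.15 and numba 0.67.0, and promoters were aligned with Biopython 1.88. State calls, widths and word counts were tested on simulated peaks and sequences. Shares have exact Clopper-Pearson 95% intervals from SciPy 1.17.1.

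The genes and lists were chosen with earlier results of these data known. Named are all genes that lost or gained H3K4me3, passed 2-fold in width, had a Polycomb peak or were in neither list, and the widest kept gene of each cluster; the others named were chosen after their values were seen. The alignment scoring, with identity given from 200 columns on, and the KRAB pattern were also set after first values were seen. Protein identity was planned and not computed. Alternatives concerned the window, overlap, peak width, start sites, uniqueness and cluster gap.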

Additional observations from a re-analysis of the deposited data

How the results depend on the processing

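Of 88 values recomputed under 18 other settings, 67 stayed within 1.5 times the count reported or within 0.1 of the median log2 ratio. The other 21 moved further. Only a median log2 ratio could reverse its sign, and none did. Windows of 500 bp or 2.5 kb and an overlap of 200 bp left the counts of kept, lost, gained and unmarked genes at 48, 2, 1 and 12. Taking all basic transcripts added no start site, so its 4 values are no check. Lost genes fell to 1 with peaks of at least 500 bp or 1000 bp (Zfp988) and to 1 when a gene-trap peak overlapping the wild-type peak counted as kept (Zfp987). Among genes with at least 90% unique words 23 kept, 0 lost and 0 gained H3K4me3, 1 was in neither list, 4 were 1.5-fold narrower and 0 wider. Only 24 genes entered that setting. With RefSeq start sites, 7 of 53 genes were in neither list and Zfp993 was lost. That start of Zfp993 lies 142078 bp from its protein-coding GENCODE start, inside the 4328 bp wild-type peak at the downstream start of Zfp981. Counting bases inside the window gave 0 narrower, 0 wider and a median log2 ratio of -0.0227. A 2-fold limit gave 2 narrower and 0 wider, and counting shared peaks once gave 1 wider. With the start site itself inside the peak, 0 genes had MTF2, 0 EZH2 and 0 H3K27me3. With peaks of at least 500 bp, 0 had MTF2 and 0 EZH2. Gaps of 250 kb and 1 Mb gave 10 and 6 clusters, with 41 and 45 genes. Starts of all transcripts of the full annotation gave 49 kept and 11 unmarked genes (Zfp986). Comparing each wild-type peak with the gene-trap peak over it gave 11 narrower genes. These 2 settings, RefSeq starts and shared peaks counted once were added after seeing the data. No paired analysis was possible because each group has 1 peak list and no value per replicate. Leaving out a replicate could not be done for the same reason. Peaks carry no height, so a narrower or missing peak cannot be told apart from lower depth or another threshold in that list.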
